A study of Mus musculus with 2 samples.

Results

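Tnc Cxcl14 preadipocyte fibroblasts are fibroblasts of obese visceral fat chosen by 6 member genes, which include Tnc and Cxcl14. At least 3 of the 6 were counted in each cell, and genes of the Dpp4-positive progenitors largely were not. Tnc itself was counted in 27.8% of the cells. The cells were chosen from the measured counts. A fibroblast was a cell with Pdgfra counted, at least 20 counts per 10000 (CP10k) of Dcn and Lum together, under 10 CP10k of Cd68, C1qa and C1qb together, and fewer than 2 of Cdh5, Kdr and Cldn5 counted. A fibroblast was kept when at least 3 of the 6 member genes Tnc, Cxcl14, Cldn15, Ednra, Enpp6 and Ndufa4l2 were counted and fewer than 3 of the 6 excluding genes Dpp4, Sema3c, Efhd1, Adamts16, Dmkn and Limch1. This gave 713 cells of 3293 gated fibroblasts and of 15741 cells in all. The cells came from the stromal vascular fraction, the non-adipocyte cells released by digesting fat, of epididymal fat pads. Donors were male mice of the C57BL/6J strain, both wild-type and Mincle-deficient, kept for 15 weeks on high-fat feed, so no lean mice enter. The age of the mice and the kind of Mincle allele are not given in the sources used here. Suspensions were stained with hashtag antibodies and pooled before capture on the BD Rhapsody microwell system, and the pool gave 1 transcript library and 1 hashtag library. The labels do not say which genotype, or how many mice, a hashtag stands for. Genotypes were therefore not compared, no test was run, and values are given for the pool and for the 4 hashtags as a description of their spread, always in the order A0309, A0310, A0311, A0312.

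Fibroblasts of white fat include progenitors that carry Dpp4 and Pi16 and lie in the sheath around the fat lobules, and preadipocytes, which are closer to becoming fat cells. Preadipocytes are known for the nuclear receptor Pparg, for the fatty acid carrier Fabp4 and for collagens of basement membranes, the thin sheets that surround fat cells and vessels. In obesity such cells can enlarge the fat store or lay down scar matrix. Tenascin C, the product of Tnc, is a matrix glycoprotein of tissue repair. Cxcl14 encodes a chemokine, Ednra a receptor for endothelin, Cldn15 a claudin, Enpp6 a phosphodiesterase of choline lipids, and Ndufa4l2 a mitochondrial protein known to be induced by hypoxia.

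The sequences before the start sites of Tnc and Cxcl14, which name the cells, and of Col15a1, a marker of theirs that the rule did not use, are shown because these genes name or mark the cells. Each is the 250 bases before a start site in RefSeq (build GRCm38.p6), written 5′ to 3′ on the gene's strand, with matches to the letters searched in capitals. The searches were for TGGGAA, the core bound by the Notch effector RBPJ, on both strands, for AGGTCA repeated in line after 1 base, the element bound by Pparg with a retinoid X receptor, on both strands, and for the TATA box TATAAA on the gene's strand.
Tnc, minus strand, chr4:64047016-64047265: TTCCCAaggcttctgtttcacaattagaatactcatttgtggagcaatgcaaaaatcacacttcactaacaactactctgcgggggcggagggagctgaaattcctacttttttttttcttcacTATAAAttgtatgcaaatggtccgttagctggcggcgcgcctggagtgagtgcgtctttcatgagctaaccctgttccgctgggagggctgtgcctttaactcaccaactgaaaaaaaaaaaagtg
Cxcl14, minus strand, chr13:56296552-56296801: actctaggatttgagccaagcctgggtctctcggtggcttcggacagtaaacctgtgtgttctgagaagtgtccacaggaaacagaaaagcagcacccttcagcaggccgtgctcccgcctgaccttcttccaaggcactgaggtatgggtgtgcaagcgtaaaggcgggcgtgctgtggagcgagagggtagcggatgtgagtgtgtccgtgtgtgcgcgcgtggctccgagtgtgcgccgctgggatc
Col15a1, plus strand, chr4:47207762-47208011: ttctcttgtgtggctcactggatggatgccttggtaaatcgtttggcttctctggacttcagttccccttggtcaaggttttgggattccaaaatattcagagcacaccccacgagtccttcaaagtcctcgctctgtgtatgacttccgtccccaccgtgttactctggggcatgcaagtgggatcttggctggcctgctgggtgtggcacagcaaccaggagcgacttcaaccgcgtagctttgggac
In the Tnc sequence the RBPJ core, on the opposite strand, began 250 bases and the TATA letters 126 bases before the start site, and these matches did not overlap. The sequences of Cxcl14 and Col15a1 held no match to the searched letters. Of 32851 such windows in the table, 21.6% held TGGGAA, 7.59% TATAAA and 0.0335% the direct repeat. Tnc has another start in the table, whose sequence is not printed. There the TATA letters began 205 bases and TGGGAA, on the gene's strand, 81 bases before that start. The Tnc gene body lies on chromosome 4 from 63959785 to 64047015, as protein-coding, in GENCODE vM21. The protein-coding gene bodies of Cxcl14 and Col15a1 span chromosome 13, 56288643 to 56296551, and chromosome 4, 47208161 to 47313167.

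The Tnc Cxcl14 cells made up 21.7% of gated fibroblasts (exact Clopper-Pearson interval 20.3 to 23.1) and 4.64% of the 15374 cells with a hashtag in the authors' calls. The share was 17.6% in A0309 (149 of 849 fibroblasts, interval 15.0 to 20.3), 23.4% in A0310 (219 of 937, interval 20.7 to 26.2), 23.4% in A0311 (180 of 768, interval 20.5 to 26.6) and 22.3% in A0312 (165 of 739, interval 19.4 to 25.5). A0309 was the lowest. The intervals cover counting error only, since cells are not replicates of a hashtag, and the hashtags were not compared by them. A further 764 fibroblasts met the mirror-image rule, with at least 3 excluding genes and fewer than 3 member genes, and are called Dpp4-gated below. The 1789 fibroblasts with fewer than 3 of either are called other fibroblasts, and 27 cells had at least 3 of both and were left out of the comparisons. The median depth was 43505 counts in the Tnc Cxcl14 cells (10444 to 116652), 39830.5 in Dpp4-gated and 31818 in other fibroblasts, with medians of 5244, 5027 and 4387 genes. A rule that asks for genes to be counted takes more of the deeper cells. With each cell thinned to 10000 counts, the rule kept 330 cells, or 11.04% of fibroblasts, and the shares of the 4 hashtags were 7.88, 11.1, 12.8 and 12.7%. The share of fibroblasts that the rule keeps thus depends on depth. A0309 was the lowest at both depths. After thinning its interval was 6.05 to 10.04, against 9.06 to 13.4 in A0310, 10.4 to 15.5 in A0311 and 10.3 to 15.4 in A0312. These intervals also cover counting error only.

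**Figure D1:**
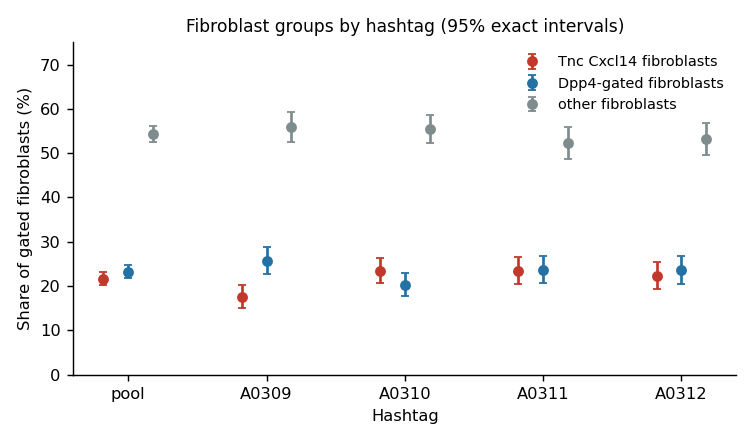
Share of gated fibroblasts (%, vertical axis) in the Tnc Cxcl14, Dpp4-gated and other groups, for the pool and for each hashtag, with 95% exact intervals that cover counting error only. The Tnc Cxcl14 share lies at 17.6% in A0309 and between 22.3 and 23.4% in the other hashtags.

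The hashtag of a fibroblast rested on few tag counts. The Tnc Cxcl14 cells had a median of 43 tag counts, against 1313.5 in cells of a macrophage gate, and a median of 60.0% of them came from the cell's own hashtag. The own hashtag was the most counted in 87.5% of the cells, and 194 cells (27.2%) had at least 10 tag counts with at least 75% from a single hashtag. All 15741 barcodes of the transcript table were also in the hashtag table. The 367 cells that the authors named doublets were left out and no doublet caller was run.

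Few of the Tnc Cxcl14 cells had all member genes counted. Exactly 3 member genes were counted in 369 cells, 4 in 240, 5 in 96 and 6 in 8. Just outside the rule, 552 fibroblasts had 2 member genes counted, with a median of 36101 counts against 39789 in those with 3. Between the cells with 2 and with 3 member genes, Cxcl14 was at 199.7 and 276 counts per 1000000 summed counts of the group (CPM), Ednra at 26.5 and 54.0, and Col15a1 at 836 and 1027. Of further genes that the rule did not use, Fabp4 was at 134 and 258 CPM, Thy1 at 201 and 365, and Heyl at 15.6 and 25.6. On the side of the excluding genes, 57 of the cells had 2 counted, and 14 fibroblasts with at least 3 member genes had 3 and were not kept.

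**Figure D2:**
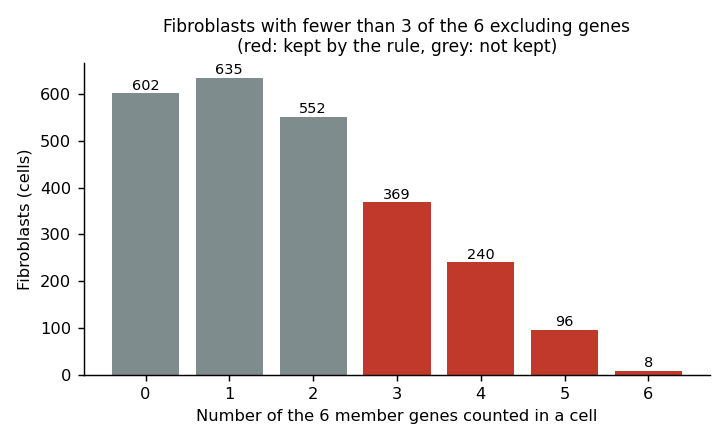
Number of fibroblasts (vertical axis) by how many of the 6 member genes were counted in the cell (horizontal axis), among fibroblasts with fewer than 3 excluding genes counted. Red bars, 369, 240, 96 and 8 cells, are the Tnc Cxcl14 cells, and the counts fall from 1 gene to 6 with no gap at the threshold.

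The levels of the 6 member genes chose the cells, so they are given as a description. Cxcl14 stood highest in counts, at 415 CPM (exact Poisson interval 409 to 422), or 406, 385, 481 and 388 CPM by hashtag. It was at 2.94 CPM in Dpp4-gated and 101 CPM in other fibroblasts. Ndufa4l2 was at 107 CPM and counted in 78.8% of the cells, and Cldn15 at 105 CPM and in 76.9%. Tnc was at 93.9 CPM, or 97.4, 64.1, 164 and 47.3 CPM by hashtag. Tnc was the most uneven of the 6 across hashtags and across cells. It was counted in 198 of the 713 cells (27.8%), and the 71 cells with the most Tnc counts held 85.0% of its counts. Enpp6 was at 78.1 CPM in 43.6% of the cells and Ednra at 73.6 CPM in 63.8%. Cldn15 and Ndufa4l2 were counted together in 432 cells (60.6%), Cxcl14 and Tnc in 149 (20.9%). Tnc was counted in 18.8% of the cells after thinning to 10000 counts, so its share depends on depth.

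Other cells of the pool also had some member genes. Gates for macrophages, endothelial cells and mural cells (pericytes and smooth muscle) were set after the data were seen, as references for levels only. Cxcl14 was counted in 32.8% of 7748 macrophage-gated cells, at 40.5 CPM, with a median depth of 38688 counts, against 73.1% of the Tnc Cxcl14 cells. The other 5 member genes were counted in 1.25 to 3.21% of macrophage-gated cells. Mural-gated cells had more Ndufa4l2, 675 CPM, and more Ednra, 197 CPM, than the Tnc Cxcl14 cells, and Cldn15 was at 212 CPM there and at 195 CPM in endothelial-gated cells. Cldn15, Ndufa4l2 and Ednra were thus higher in mural-gated cells than in the Tnc Cxcl14 cells, while Cxcl14, Enpp6 (78.1 against 1.39 to 5.64 CPM) and Tnc (93.9 against 0.437 to 43.8 CPM) were higher in the Tnc Cxcl14 cells than in each of the 3 gates.

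The name was checked against marker lists. All 6 fibroblast markers (Pdgfra, Dcn, Lum, Col1a1, Col1a2, Col3a1) were at 5 CPM or more. Pdgfra, Dcn and Lum were genes of the fibroblast gate, so only Col1a1, Col1a2 and Col3a1 were not set by it. Fabp4 and Col15a1, the markers of the name that the rule did not use, stood at 371 and 1223 CPM. Of 7 preadipocyte markers 6 reached 5 CPM, while Dlk1, a surface protein of early preadipocytes, was counted in 2 cells. Their summed level was 6332 CPM (5613 to 6808 over hashtags), against 1111 CPM in Dpp4-gated and 4025 CPM in other fibroblasts. Lpl alone gave 4434 of it, and the list summed higher in macrophage-gated (14446 CPM), endothelial-gated (29030 CPM) and mural-gated cells (11000.1 CPM), so it does not set preadipocytes apart from those cells. Icam1, also on the list, lay below other fibroblasts and above Dpp4-gated cells, so the sum does not stand for each gene. Of 6 markers of mature adipocytes, Adipoq, Cidec and Cfd were at 0, which allows up to 0.0893 CPM. Plin1 alone of those 6 reached 5 CPM, at 12.5 CPM, against 10.2 and 13.5 CPM in the Dpp4-gated and other fibroblasts.

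Markers of other cell types were summed in the same groups. Some were also genes of the gates: Cd68, C1qa and C1qb, Cdh5, Kdr and Cldn5, and the mural genes Rgs5, Myh11, Kcnj8, Abcc9, Higd1b and Notch3. Part of each contrast with macrophage-gated, endothelial-gated or mural-gated cells was thus set by the gates. The 8 mural markers summed to 125 CPM (78.0 to 157 over hashtags) in the Tnc Cxcl14 cells, 22.4 CPM in Dpp4-gated, 65.5 CPM in other fibroblasts and 15930 CPM in mural-gated cells, and 5 of the 8 were at 5 CPM or more with none at 0. At least 2 mural genes were counted in 70 of the cells (9.82%, interval 7.73 to 12.2), against 1.18% of Dpp4-gated and 4.97% of other fibroblasts. The 6 endothelial markers summed to 88.3 CPM (76.2 to 98.5), of which Plvap, a protein of endothelial fenestrae, gave 73.6. They summed to 21.9 CPM in Dpp4-gated, 47.9 CPM in other fibroblasts and 8727 CPM in endothelial-gated cells, and Plvap was higher over Dpp4-gated cells (5.79 CPM, log2 ratio 3.46). The part of endothelial RNA in these values was not tested. The 8 macrophage markers summed to 191 CPM (153 to 231), against 258 CPM in Dpp4-gated, 236 CPM in other fibroblasts and 18756 CPM in macrophage-gated cells. C1qb was counted in 67.0% of the cells at 38.0 CPM, near its 39.3 and 39.8 CPM in the other fibroblast groups. Immediate early and dissociation genes differed little from Dpp4-gated cells (median log2 ratio of 10 genes -0.08) and were lower than in other fibroblasts (-0.42, with 1 of 10 genes above 0), with Fos at 4291 against 5881 CPM. At least 3 cell cycle genes were counted in 40 of the cells (5.61%).

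The comparisons that follow are of the Tnc Cxcl14 cells with Dpp4-gated and with other fibroblasts. Both use the same Tnc Cxcl14 cells, and the groups were cut from the same counts, so values and numbers of genes describe the groups and are not tests. A log2 ratio compares CPM plus a pseudocount of 1. It passed the rule of size when it was at least 1 in size, in a single direction, in the pool and in all 4 hashtags, among genes at 5 CPM or more in either group. Over Dpp4-gated fibroblasts, of 11499 genes, 297 outside the rule and 6 of the rule were higher (2.64% together) and 293 and 6 were lower (2.6%). Over other fibroblasts 27 of 11380 genes were higher (0.237%) and 20 lower (0.176%), 7 of them genes of the rule. The median log2 ratio of all genes tested was -0.02 and -0.01. In 68 genes, among them Fabp4, Lpl, Cd36, Col4a1, Col4a2, Col3a1, Fn1 and Rgs5, the deposited counts of a cell have no value from 1 to 4, so a share of cells with such a gene counted has a higher bar. The lowest value kept was 9 counts for Fabp4 and 13 for Lpl and Cd36. Zeroed values are also missing from the CPM and log2 ratios of the 68 genes. Those ratios are therefore not directly comparable with ratios of other genes, and the size of this effect was not tested.

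Some genes of fatty acid uptake were higher in the Tnc Cxcl14 cells than in Dpp4-gated fibroblasts. Of 17 measured genes for lipid uptake and storage, 5 were higher over Dpp4-gated fibroblasts and 0 lower, against the 2.64 and 2.6% of all genes, and their median log2 ratio was 0.94. Fabp4 was at 393, 230, 495 and 404 CPM in the 4 hashtags, against 21.5 to 58.9 in Dpp4-gated and 88.8 to 191 in other fibroblasts. Its log2 ratio was 3.53 over Dpp4-gated (1.95 to 4.46 over hashtags) and 1.52 over other fibroblasts (1.07 to 1.96), past the rule of size in both. Fabp4 was counted in 43.3% of the Tnc Cxcl14 cells, 5.10% of Dpp4-gated and 17.9% of other fibroblasts, and in 41.2, 4.74 and 17.7% after thinning. Kept Fabp4 values are at least 9 counts, a bar set at full depth. Thinning thus removes few of them and cannot show how far the shares depend on depth. Macrophage-gated cells had it in 45.9%, at 295 CPM, and endothelial-gated cells at 20961 CPM, and their part in the fibroblasts' Fabp4 was not tested.

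Lpl, which encodes the lipase that frees fatty acids from circulating fat, was at 3851, 4936, 4253 and 4497 CPM in the 4 hashtags. Dpp4-gated fibroblasts lay between 630 and 1013 CPM and other fibroblasts between 2804 and 3090 CPM. Its log2 ratio was 2.55 over Dpp4-gated cells, past the rule of size, and 0.59 over other fibroblasts, not past it. Cd36, a fatty acid transporter, was at 139 CPM against 17.8 (log2 ratio 2.90, past the rule) and 60.2 CPM (1.20, not past it in every hashtag), and was counted in 15.99% of the cells. Macrophage-gated cells held 9537 CPM of Lpl and 4493 CPM of Cd36, and endothelial-gated cells 6786 CPM of Cd36, and the part of their RNA in the fibroblasts was not tested. Plin4, a lipid droplet protein, was at 7.74 CPM against 0.796 (2.28, past the rule) and 9.65 CPM (-0.29). Fasn, the fatty acid synthase (31.8, 32.6 and 31.6 CPM in the 3 groups) and Acsl1, which activates fatty acids (10.3, 14.3 and 9.22 CPM) were close to level, and Scd1, a desaturase, was at 111 against 58.6 and 61.1 CPM (log2 ratio over Dpp4-gated cells 0.91, 0.71 to 1.02 over hashtags, not past the rule). Angptl4, an inhibitor of Lpl, was at 558 against 276 and 369 CPM, not past the rule.

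Among transcription factors of fat cell formation, Pparg alone passed the rule of size. Pparg was at 26.5, 17.5, 23.2 and 25.1 CPM in the 4 hashtags. Dpp4-gated fibroblasts lay between 3.19 and 7.15 CPM and other fibroblasts between 11.1 and 17.9 CPM, so the lowest Tnc Cxcl14 hashtag, A0310, was below the highest of the other fibroblasts. The log2 ratio was 2.13 over Dpp4-gated (1.18 to 2.64 over hashtags) and 0.64 over other fibroblasts. Pparg was counted in 32.7% of the cells, 7.98% of Dpp4-gated and 17.6% of other fibroblasts, and in 43.1% of macrophage-gated cells. The remaining 11 measured factors of 12 did not pass over Dpp4-gated cells, with a list median of 0.11. Of all genes 2.64% were higher and 2.6% lower. Cebpa was at 18.8 against 10.9 and 24.4 CPM, and Klf4 at 1304 against 2398 and 1898 CPM. Of 7 measured inhibitors of fat cell formation, Nr2f2, a nuclear receptor, was higher (79.6 against 19.0 CPM, log2 ratio 2.01) and none was lower. Dlk1 was at 0.0893 CPM.

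**Figure D3:**
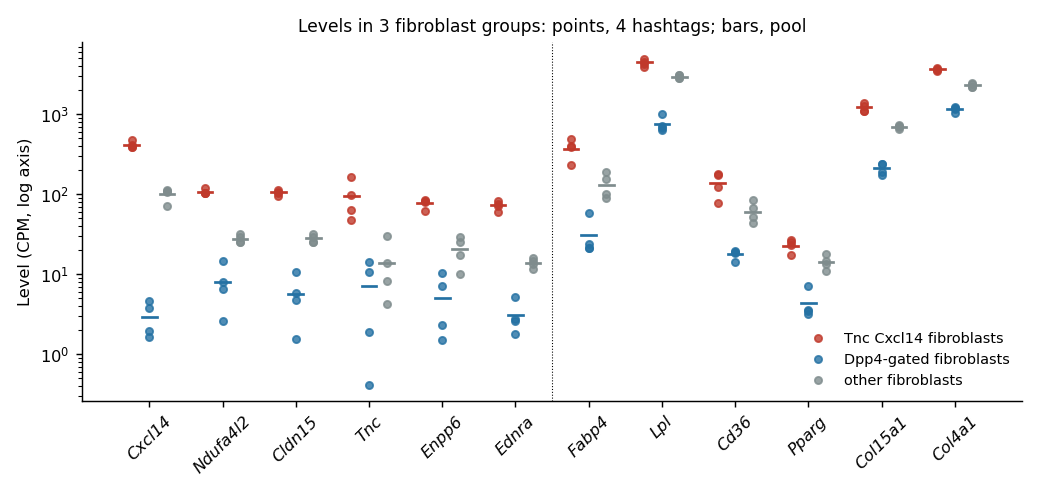
Levels in CPM (vertical log axis) of the 6 member genes, left of the dotted line, and of 6 genes that the rule did not use, right of it, in Tnc Cxcl14, Dpp4-gated and other fibroblasts. Points are the 4 hashtags and bars the pool, and Fabp4 is at 230 to 495 CPM in the Tnc Cxcl14 cells against 88.8 to 191 in other fibroblasts.

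The basement membrane list held genes in both directions. Of 14 measured genes, 6 were higher over Dpp4-gated fibroblasts and none lower, against 2.64 and 2.6% of all genes. Their median log2 ratio was 0.56. Col15a1, a collagen at the outer face of basement membranes, was at 1104, 1364, 1249 and 1102 CPM in the 4 hashtags, against 176 to 240 in Dpp4-gated and 651 to 724 in other fibroblasts. The log2 ratios of Col15a1 were 2.53, past the rule of size, and 0.81, not past it. The basement membrane collagens Col4a1 (3630 against 1163 CPM) and Col4a2 (2126 against 619 CPM), Col18a1, whose fragment is endostatin (414 against 120 CPM), Sparcl1, a matricellular protein (1854 against 362 CPM), and Nid2, a linker of laminin and collagen (136 against 42.5 CPM), also passed. The laminin chains of the list did not pass: Lamc1 was at 608 against 760 CPM, Lama4 at 344 against 563 and Lama2 at 506 against 426. Nid1, the paralog of Nid2, was at 1389 against 2200 CPM, a log2 ratio of -0.66. Over other fibroblasts none of the 14 passed, while 13 of 14 had a ratio above 0 with a median of 0.34, beside -0.01 over all genes.

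Fibrillar and associated collagens summed to 44494 CPM in the Tnc Cxcl14 cells, 23077 CPM in Dpp4-gated and 29543 CPM in other fibroblasts. Of 12 measured genes 4 were higher and 1 lower over Dpp4-gated fibroblasts, against 2.64 and 2.6% of all genes. The median log2 ratio was 0.88. Col6a3, a chain of the beaded-filament collagen of fat, was at 1606, 1654, 1768 and 1513 CPM in the 4 hashtags, against a pool level of 461 CPM in Dpp4-gated (log2 ratio 1.83) and 896 CPM in other fibroblasts (0.87). Col1a1 was at 5768 against 2298 CPM (1.33) and Col6a2 at 3931 against 1538 CPM (1.35). Col3a1, the most counted of the 12, was at 18459 against 10383 CPM (0.83, not past the rule). Col14a1, which coats fibrils, went the other way, at 368 against 1127 CPM (-1.61, lower). Over other fibroblasts none of the 12 passed, 11 had a ratio above 0 and the median was 0.58.

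Other matrix genes did not share a direction. The counts that follow stand beside 2.64% of all genes higher and 2.6% lower over Dpp4-gated cells. Of 18 matricellular and elastic fibre genes, Fbln1, a fibulin, was higher over Dpp4-gated fibroblasts (319 against 105 CPM), while Fn1, fibronectin (3410 against 9581 CPM, log2 ratio -1.49), Fbn1, fibrillin (1425 against 4589 CPM, -1.69), and Emilin2 (94.2 against 360 CPM, -1.93) were lower. Their median was -0.18. Of 12 proteoglycan and hyaluronan genes, Fmod, which binds collagen fibrils (46.2 against 2.39 CPM), and Bgn, biglycan (5672 against 2627 CPM), were higher, and Has2, a hyaluronan synthase (9.23 against 30.6 CPM), was lower. Itga1, the chain of a collagen-binding integrin, was the 1 gene of 9 integrins measured that passed (33.4 against 5.24 CPM, log2 ratio 2.47). Of 15 proteases and inhibitors, Mmp3, a stromelysin (340 against 44.7 CPM), Adam12 (184 against 48.2 CPM) and Adamts12 (262 against 81.9 CPM) were higher, and the metalloproteinase inhibitors Timp2 (2997 against 6823 CPM) and Timp3 (237 against 857 CPM) were lower. None of the genes in these 4 lists passed over other fibroblasts.

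**Figure D4:**
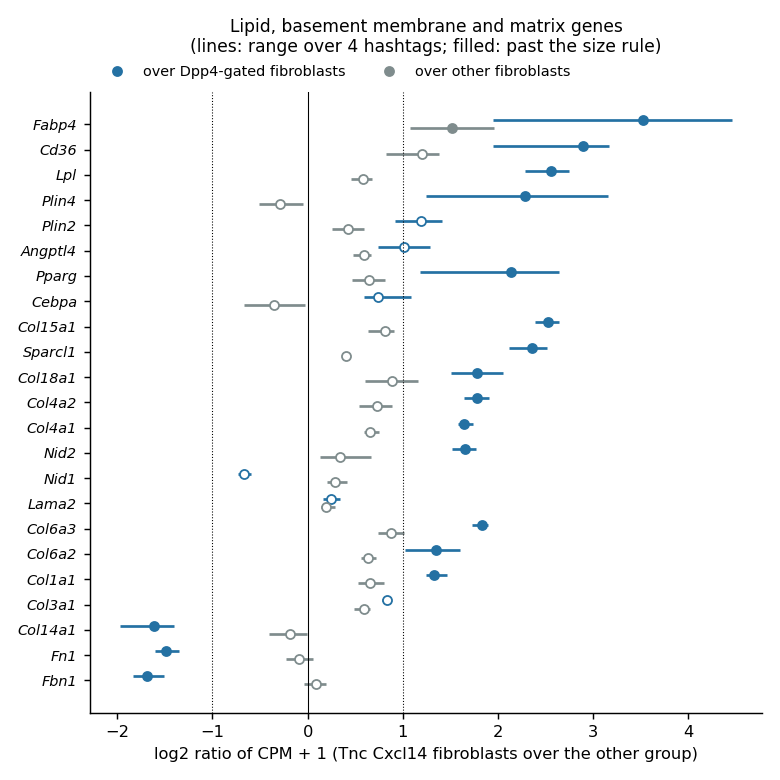
Log2 ratios of CPM + 1 (horizontal axis) of Tnc Cxcl14 cells over Dpp4-gated (blue) and over other fibroblasts (grey) for genes of lipid handling and matrix, with the range over 4 hashtags as lines and filled points for genes past the rule of size. Over Dpp4-gated cells Col15a1 lies at 2.53 and Fbn1 at -1.69, and over other fibroblasts Fabp4, at 1.52, is the only filled point.

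The Notch receptor genes Notch1 and Notch3 and the target gene Heyl were higher in the Tnc Cxcl14 than in Dpp4-gated cells. Of 6 measured Notch genes, 3 were higher over Dpp4-gated fibroblasts and 2 over other fibroblasts, against 2.64 and 0.237% of all genes. Notch3, a receptor best known in mural cells, was at 41.5, 26.7, 35.6 and 23.9 CPM in the 4 hashtags. Dpp4-gated fibroblasts lay between 1.39 and 2.77 CPM and other fibroblasts between 10.3 and 15.6 CPM, and the log2 ratios were 3.36 and 1.22. Heyl, a transcriptional target of Notch signalling, was at 37.6, 27.2, 22.8 and 35.8 CPM in the 4 hashtags, against 2.27 CPM in Dpp4-gated (log2 ratio 3.25) and 11.2 CPM in other fibroblasts (1.35). Notch1 was at 41.7 against 5.85 CPM (2.64) and 27.3 CPM (0.59, not past the rule). The ligand Jag1 was at 27.5, 49.5 and 27.5 CPM in the 3 groups, and Notch2 at 23.7, 47.6 and 28.7 CPM.

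Notch3 is itself on the list of mural genes, and some others of that list went in the same direction. Des, desmin (55.4 against 14.2 CPM), Abcc9, a potassium channel subunit of pericytes (16.3 against 1.90 CPM), and Acta2, smooth muscle actin (40.6 against 6.55 CPM), were higher over Dpp4-gated cells. Mural-gated cells had 678 CPM of Notch3 and 225 CPM of Heyl. The 70 cells with at least 2 mural genes were then left out, with the same filter in the other groups. Notch3 kept log2 ratios of 3.47 and 1.23 and Heyl of 3.23 and 1.31. Over other fibroblasts neither then passed the rule of size in every hashtag. Notch3, Rgs5 and Abcc9 were themselves among the genes of this filter and of the mural gate, so both acted on their values directly. Rgs5, a pericyte gene, passed over other fibroblasts at 21.9 against 5.19 CPM, but it was counted in 9 of the 713 cells (1.26%), and its log2 ratio of 1.89 turned to -1.01 with the mural-gene cells left out. Acta2 over other fibroblasts was 0.91 and -0.58 to 2.03 over hashtags.

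Ligands and receptors of several pathways separated the Tnc Cxcl14 from Dpp4-gated fibroblasts. Ednra was a gene of the rule. Its ligand gene Edn1 was lower, at 3.33 against 33.7 CPM (log2 ratio -2.999), and close to the 4.99 CPM of other fibroblasts, while Ece1, which processes the ligand, was at 131 against 128 CPM. The receptor Pdgfrb was higher (313.7 against 87.9 CPM, 1.82) and the ligand gene Pdgfc lower (1.10 against 14.6 CPM, -2.89). Of growth factors, Fgf10, a ligand known to promote fat cell formation, was at 25.1, 39.7, 33.8 and 33.5 CPM in the 4 hashtags, against 0.602 to 1.86 in Dpp4-gated and 13.1 to 19.98 in other fibroblasts (3.94 and 0.96). Fgf7 (79.2 against 26.4 CPM) was also higher, and Fgf1 (45.1 against 167 CPM) and Fgf2 (26.1 against 102 CPM) were lower. Igf1 was higher (657 against 174 CPM) and its binding proteins Igfbp5 (49.3 against 225 CPM) and Igfbp6 (771 against 1717 CPM) were lower.

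Of 13 measured Wnt pathway genes, 5 were lower and 1 higher over Dpp4-gated fibroblasts, against 2.6 and 2.64% of all genes. Wnt10b, a ligand known to block fat cell formation, was at a very low level (0.149 against 13.0 CPM, log2 ratio -3.61). The secreted inhibitors diverged, with Sfrp1 higher (431 against 60.6 CPM, 2.81) and Sfrp4 lower (49.5 against 599 CPM, -3.57). Rspo1, an amplifier of Wnt signals, was lower in both comparisons, at 9.47 against 36.01 and 35.1 CPM (-1.82 and -1.79). Of 12 measured BMP and activin genes, Bmper, a BMP-binding protein (340 against 97.8 CPM), and the receptor Acvr2a (92.6 against 29.6 CPM) were higher, and the ligands Bmp6 (4.38 against 86.3 CPM), Bmp7 (1.25 against 33.9 CPM) and Bmp2 (3.33 against 18.5 CPM) were lower. Of 12 TGF-beta genes, Ltbp1, a latency protein, was lower (98.5 against 238 CPM), and Tgfb1 was at 36.7, 25.5 and 33.6 CPM in the 3 groups, past the rule in neither comparison.

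Some receptor genes of the IL-6 family were higher over Dpp4-gated fibroblasts. Of 9 measured genes 3 were higher and none lower, against 2.64 and 2.6% of all genes, with a median log2 ratio of 1.21. Osmr, the receptor chain for oncostatin M, a macrophage product, was at 171, 213, 164 and 167 CPM in the 4 hashtags, against 71.6 CPM in Dpp4-gated (log2 ratio 1.33) and 155 CPM in other fibroblasts (0.23). Lifr (77.4 against 17.7 CPM) was also among them, and the shared chain Il6st was at 312.9 against 277 CPM. Clec4e, the Mincle gene, was counted in 0.701% of the cells (0.268 CPM), below the 5 CPM that entered the rule. Of 9 complement genes, C4b (967 against 268 CPM), C2 (77.4 against 21.6 CPM) and C7 (67.5 against 14.5 CPM) were higher over Dpp4-gated cells. Over other fibroblasts 1 of the 9 had a ratio above 0, and C3 was at 3471 against 5691 CPM.

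Chemokine and inflammatory genes set the Tnc Cxcl14 cells apart from Dpp4-gated cells in both directions. The counts that follow stand beside 2.64% of all genes higher and 2.6% lower. Of 16 genes, Agt, angiotensinogen (93.1 against 11.97 CPM), Rgs16 (39.4 against 6.95 CPM), Cx3cl1, fractalkine (57.1 against 3.797 CPM), and Cxcl12 (578 against 206 CPM) were higher and Cxcl2, a neutrophil chemokine (13.3 against 64.8 CPM), was lower. Cxcl2 was also lower than in other fibroblasts (39.9 CPM, log2 ratio -1.52), and it was counted in 4.21% of the Tnc Cxcl14 cells and 4.14% of other fibroblasts. Agt was below other fibroblasts (229 CPM, -1.29), not past the rule in every hashtag. Of 8 genes of the F3 fibroblasts described in fat, 5 were higher over Dpp4-gated cells, among them Cygb, cytoglobin (1655 against 365 CPM), Clec11a (76.7 against 17.3 CPM) and the transcription factors Meox1 (59.6 against 11.3 CPM) and Meox2 (27.6 against 4.44 CPM), and none over other fibroblasts. Of 9 further progenitor genes, 8 were lower than in Dpp4-gated cells, with Pi16 at 149 against 1746 CPM and Cd55 at 131 against 1368 CPM. That list describes the cells the comparison group was chosen for. Genes of retinoid and steroid handling split, with Adh1 (225 against 72.0 CPM) and Hsd11b1, which activates glucocorticoid (141 against 48.2 CPM), higher and Aldh1a3 (194 against 484 CPM) lower.

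The highest ratios over Dpp4-gated fibroblasts, genes of the rule left out, were those of Olfm2, a secreted olfactomedin (34.5 against 0.551 CPM, log2 ratio 4.52), Egflam, a matrix protein (39.8 against 1.29 CPM, 4.16), Gucy1a1, a subunit of the nitric oxide receptor (34.8 against 1.22 CPM, 4.01), Fgf10, Trarg1, a regulator of glucose transporter traffic (25.9 against 0.796 CPM, 3.91), and Spon1, a matrix protein (101 against 6.19 CPM, 3.82). Fmod, Ahsg (24.8 against 0.857 CPM), Cadm4, Frem1, Cx3cl1 and Vtn, vitronectin (116 against 8.63 CPM), followed. The lowest were Smpd3, a neutral sphingomyelinase (3.42 against 216 CPM, -5.62), Mrgprg, Sema3e, a semaphorin (0.625 against 66.6 CPM, -5.38), Ccn3, a matricellular protein (2.26 against 130 CPM, -5.33), Arl4d (1.70 against 76.0 CPM) and Adgrg2 (0.983 against 54.8 CPM). Dsp, desmoplakin (0.179 against 31.3 CPM), Car8, the peroxide-forming oxidase Duox1 (0.715 against 37.1 CPM) and its maturation factor Duoxa1 (1.67 against 55.6 CPM), Aif1l and Gap43 followed. Gap43, a protein of growing axons, was not counted in the Tnc Cxcl14 cells, which allows up to 0.0893 CPM, and was at 15.9 CPM in Dpp4-gated cells.

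Against other fibroblasts, the nearest group, 21 genes outside the rule were higher and 19 lower. Frem1, a basement membrane protein, was at 9.20, 14.8, 16.2 and 15.5 CPM in the 4 hashtags, against 1.93 to 3.34 in other fibroblasts (log2 ratio 2.06). Cadm4, a cell adhesion protein, was at 39.6, 48.8, 60.0 and 35.1 CPM in the 4 hashtags, against 9.36 to 15.0 (1.82). Sema7a, a membrane-anchored semaphorin, was at 24.6, 22.7, 41.7 and 23.7 CPM in the 4 hashtags, against 4.73 to 9.24 (1.79). These 3 genes were named for high ratios past the rule in each hashtag, so the distance between the groups follows from that choice. Thy1, a surface protein used to mark fibroblasts, was at 383, 446, 543 and 343 CPM in the 4 hashtags, against 117 to 174 in other fibroblasts (1.54). Dpp4-gated cells, at 274 to 374 CPM, overlapped the Tnc Cxcl14 cells in Thy1 (0.49, not past the rule). Col8a1, a short-chain collagen (535 against 234 CPM, 1.19), also passed over other fibroblasts and not over Dpp4-gated cells, where it was at 349 CPM.

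The other genes higher over other fibroblasts included further adhesion, matrix and metabolic genes. Trarg1 was at 25.9 against 8.28 CPM (log2 ratio 1.54), Lamc3, a laminin chain, at 6.58 against 1.62 CPM (1.53), Cyp4b1, a cytochrome, at 63.1 against 22.3 CPM (1.46), and Pcdh12, a protocadherin, at 14.9 against 4.37 CPM (1.57). Each of these 4 was also past the rule over Dpp4-gated cells. Unc5b, a netrin receptor (26.0 against 9.64 CPM), Epor, the erythropoietin receptor (9.14 against 3.28 CPM), and Septin9 (114 against 52.1 CPM) lay between log2 ratios of 1.11 and 1.34. Ddah1 (8.34 against 1.84 CPM) was close to the floor of 5 CPM.

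Genes lower than in other fibroblasts were mostly of low level. Inmt, a methyltransferase of small amines, was the most abundant of them, at 71.5, 67.5, 71.5 and 85.2 CPM in the 4 hashtags, against 272 to 313.3 in other fibroblasts (log2 ratio -1.98). Dpp4-gated cells, at 40.3 to 80.1 CPM, overlapped the Tnc Cxcl14 cells in Inmt (0.29). Nmb, neuromedin B, was at 30.6 against 96.5 CPM (-1.63) and 17.3 CPM in Dpp4-gated cells. Inmt and Nmb were thus higher in other fibroblasts than in the Tnc Cxcl14 and Dpp4-gated cells, though still counted in 31.8 and 23.6% of the Tnc Cxcl14 cells. Cxcl13, a B-cell chemokine, had the lowest ratio (1.22 against 10.7 CPM, -2.40) but was counted in 2.29% of other fibroblasts. Tgfbi, a matrix protein, was at 36.7 against 84.3 CPM (-1.18) and Myoc, myocilin, at 5.48 against 22.4 CPM (-1.85). Smpd3 (3.42 against 14.5 CPM), Arl4d, Adgrg2, Duoxa1 and Opcml (1.85 against 7.51 CPM) were lower here and lower still against Dpp4-gated cells. Ppargc1a, a coactivator of mitochondrial genes, was at 2.71 against 10.1 CPM (-1.58) and 1.01 CPM in Dpp4-gated cells.

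**Figure D5:**
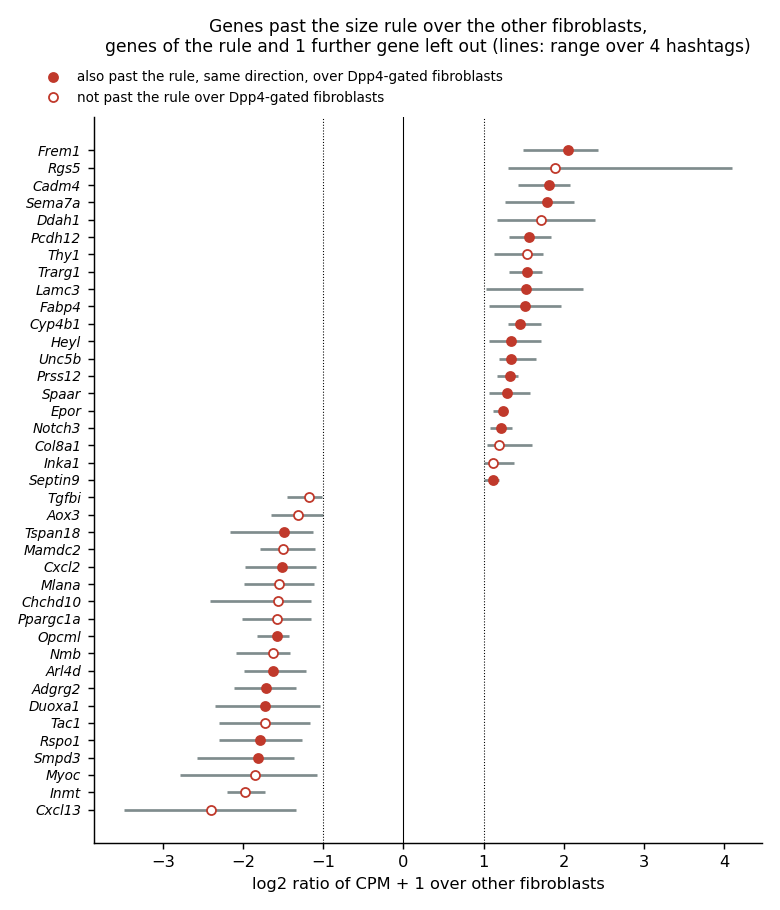
Log2 ratios of CPM + 1 (horizontal axis) of the Tnc Cxcl14 cells over other fibroblasts for genes past the rule of size in either direction, genes of the rule and 1 further gene left out, with the range over 4 hashtags as lines. Filled points also passed in the same direction over Dpp4-gated cells, and Rgs5, with 1.31 in its lowest hashtag, has the widest line among the higher genes.

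The cells varied among themselves with the number of member genes counted. From the 369 cells with 3 to the 96 with 5 member genes, Thy1 was at 365 and 590 CPM, Col15a1 at 1027 and 1702, Fabp4 at 258 and 503, Heyl at 25.6 and 41.0, and Lpl at 4443 and 4628. The order did not hold throughout, since Lpl was at 4334 CPM in the 240 cells with 4, and the 8 cells with 6 had 1180 CPM of Col15a1 and 6.73 CPM of Heyl. The median depth of these cells was 39789 and 54571 counts, so the number of genes counted and depth move together. Within the cells, Col15a1 was even, counted in 99.9% with quartiles of 7.06 and 15.3 CP10k, and Lpl was counted in 98.5% with a median of 36.3 CP10k. The 71 cells with the most held 60.1% of Fabp4 counts and 85.7% of Cd36 counts. Values of these genes under 9 and under 13 counts, and of Lpl under 13, are 0 in the deposited table while those of Col15a1 are not, so these shares and evenness cannot be compared with Col15a1. Fabp4 and Lpl were counted together in 43.2% of the cells (interval 39.5 to 46.9), against 4.06% of Dpp4-gated and 17.3% of other fibroblasts.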

How the data were processed

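The authors deposited 1 table of unnormalized counts (15741 cells, 30084 genes, 651658017 counts in all) and 1 table of hashtag counts. The sources do not state if these counts are reads or molecules. Tools listed in the submitters' processing notes, without their roles, are R 4.1.2 and 3.6.3, Bowtie2 2.4.2 and cutadapt 3.4, and the build listed is GRCm38. Each cell's hashtag was taken from its name, per the file headers. Low values of 68 genes had been set to 0 in the deposited counts, with lowest remaining values from 5 to 68.

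Counts were summed over the cells of a group, in the pool and per hashtag, and scaled to CPM (Python 3.11.15, numpy 2.4.6, scipy 1.17.1, pandas 2.3.3). Intervals are 95% exact Poisson or Clopper-Pearson and cover counting error only. With 1 pooled sample no test was run. The rule of size was also applied, in a separate run, to simulated group totals with known changes. Those totals had no spread between cells and no choice of cells by counted genes, so that run does not stand for these data. The members and the 41 gene lists (398 of 401 genes measured) were chosen with earlier results of these data known. Genes named are those of the rule and the markers, the 12 highest and lowest ratios of each comparison, up to 4 genes past the rule of size and the most abundant other gene of each list, and Clec4e, Osmr, Tgfb1 and Pparg. Other genes named were chosen after their values were seen. Some genes that the naming rule gives are not reported here. Fewer cells of a type and a change within the cells cannot be told apart across hashtags. Alternatives tried were another pseudocount, no level floor, means over cells, single-hashtag cells, thinning, a stricter rule, removal of mural-gene or cycling cells, a stricter macrophage gate, a quality filter, cells of intermediate depth, and leaving out each hashtag.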

Additional observations from a re-analysis of the deposited data

How the results depend on the processing

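The number and share of Tnc Cxcl14 cells, 713 and 21.7%, were 194 and 29.8% among single-hashtag cells, 330 and 11.04% after thinning to 10000 counts, and 344 and 10.4% when at least 4 member genes were asked for. The number was 643 without cells with at least 2 mural genes, 608 with the stricter macrophage gate and 337 at intermediate depth. Leaving out each hashtag in turn gave 494 to 564 cells, a share of 21.0 to 23.1%, 327 to 343 genes higher and 320 to 344 lower over Dpp4-gated fibroblasts, and 28 to 32 higher and 25 to 41 lower over other fibroblasts. The count of 41 is that without A0309, against 20 with all hashtags. Over other fibroblasts, a pseudocount of 5 CPM gave 14 genes higher and 4 lower, thinning 17 and 41, at least 4 member genes 45 lower, and intermediate depth 16 higher. Of the genes past the rule of size over other fibroblasts, Thy1 and Inmt passed in 16 of 16 settings, Fabp4 in 14, Frem1 in 12, Heyl in 11, Notch3 in 10 and Cxcl2 in 8. The 16 include the main run, no level floor, the quality filter, which removed no gated fibroblast, and leaving out each hashtag. All 31 named genes past the rule over other fibroblasts passed in each of these, so only the remaining settings separate the genes. Counts over Dpp4-gated fibroblasts stayed within 1.5 times of their value in each setting run, from 210 to 343 higher and from 215 to 344 lower. The genes were not all the same. Among single-hashtag cells 176 of the higher and 181 of the lower genes over Dpp4-gated fibroblasts passed again. After thinning 13 of 27 higher and 10 of 20 lower genes over other fibroblasts did. The 27 and 20 hold 6 and 1 genes of the rule, and Cxcl14, Cldn15, Ednra and Enpp6 passed in 16 of 16 settings. Each setting chooses its cells by the genes of the rule, so these numbers do not measure recurrence outside it. Rgs5 over other fibroblasts turned to -1.01 without the mural-gene cells, and the log2 ratio of Ube2c, a mitotic gene, over Dpp4-gated cells turned from -1.38 to 0.0781 at intermediate depth. No paired analysis was possible because there is 1 pooled sample, the results come from no test, and no label pairs the hashtags. The single pool, the unknown genotype and mice behind each hashtag, and low tag counts in fibroblasts limit all values, and counts near the 5 CPM floor are the least certain.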
